A study of Mus musculus with 20 samples.

Results

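Expression of 8 genes, chosen by name as regulators of the germinal centre and of the plasma cell, was followed across the samples. The genes are Bcl6, Bach2, Irf8, S1pr2, Irf4, Prdm1, Xbp1 and Pou2af1, and all 8 were present among the 25869 genes of the RNA-seq table. The germinal centre is the structure in lymphoid organs where activated B cells divide, mutate their antibody genes and are selected. BCL6 is the repressor that holds B cells in this state, BACH2 and IRF8 act on the same side, and the receptor S1PR2 keeps the cells inside the follicle. IRF4, BLIMP-1 (the product of Prdm1) and XBP1 drive the exit to the antibody-secreting plasma cell, and OCA-B (the product of Pou2af1) is a B cell co-activator needed for germinal centres. BCL6 and BLIMP-1 repress each other's genes, and this circuit is used to place B cell lymphomas along the path from germinal centre to plasma cell.

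The series holds 20 mouse RNA-seq libraries. Of these, 10 are mouse embryonic fibroblasts (MEFs), namely 2 wild-type (WT), 2 dCas9a-SAM KI/+ without an sgRNA, 2 dCas9a-SAM KI/+ with a non-targeting sgRNA (sgNT) and 4 dCas9a-SAM KI/+ with sgBcl-2, with 2 independent MEF lines for each genotype. dCas9a-SAM is a CRISPR activation cassette, a nuclease-dead Cas9 joined to transcriptional activators and expressed from Rosa26, and it raises transcription at the promoter that the sgRNA binds. A further 6 are lymphoma lines of the genotype Eµ-Myc/dCas9a-SAM KI/+/sgBcl-2, named by sample and mouse number, of which 4 are IgM-positive (14_179, 15_180, 16_202 and 17_213) and 2 are IgM-negative (18_214 and 19_216). Eµ-Myc drives the oncogene Myc from an immunoglobulin enhancer in B lineage cells, the tumours arose in mice reconstituted with transduced haematopoietic stem cells, and each line came from 1 mouse. The other libraries are 2 IgM-positive primary tumours of the same genotype (20 and 21) and 2 BCR-ABL1 (p190T/+) preB acute lymphoblastic leukaemias (preB-ALL), labelled P190CreERLSLErg and P190RagCreErg and called preB-ALL 1 and 2 here. These titles carry different Cre and Erg constructs, so the 2 leukaemias, taken as one group, may differ in genotype. The sample labels name no drug treatment. The titles and the descriptions give the tumours opposite mouse numbers, and the column names of the deposited values follow the descriptions. The labels alone thus do not settle which tumour belongs to which of lines 14_179 and 15_180. Over all genes tested, tumours and lines deviated from their group means together when paired by title and in opposite ways when paired by description. With 2 tumours and 2 lines these are 1 result, since swapping the pairs only turns the sign.

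Between 12474885 and 26678417 reads were counted in a library. Both preB-ALL libraries lay at the lower end (12474885 and 14970269 reads), held no read on the 15 mitochondrial genes and were made with another RNA kit from cells grown with IL-7. Their column names also carry another sequencing lane and alignment suffix than those of the other libraries. Kit, medium, depth, lane and alignment thus cannot be told apart from the leukaemia in any comparison with them. The 6 B cell markers (Cd79a, Cd79b, Ms4a1, Cd22, Ptprc and Blnk) summed to 1001 to 1623 CPM (reads of a gene scaled to a common library total) in the lymphoma lines, 4572 to 4715 CPM in the tumours, 2705 to 4942 CPM in preB-ALL and 0.489 to 12.5 CPM in MEFs. The 12 fibroblast genes (collagens, Dcn, Lum, Fn1, Sparc and others) summed to 6600 and 2821 CPM in preB-ALL 1 and 2, against 3.12 to 38.9 CPM in the lines and 8538 to 25341 CPM in MEFs, although Dcn stood at 0 in both preB-ALL libraries. WT MEF 2 held 234.6 CPM over 10 myeloid markers, against 8.69 to 14.2 CPM in the other 9 MEF libraries.

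Promoters of 6 members are printed first, for Xbp1, the member that differed between the lymphoma lines and preB-ALL, and for Bcl6, Irf8, Bach2, Irf4 and S1pr2, the 5 that were highest in the same lymphoma line. Each is the 250 bases before an annotated RefSeq start on GRCm38.p6, 5′ to 3′ on the strand of the gene. Capitals mark letters matched, on either strand, by one of 6 motifs: the octamer ATTTGCAT bound with OCA-B, the IRF-type GAANNGAAA, the core TTCNNNGAA shared by STAT factors and BCL6, TGANTCA of AP-1 and MAF factors with which BACH2 pairs, the E-box CACGTG, and CCACGT of XBP1, which overlaps the E-box. The Bach2 start lies inside the span of the gene, downstream of its first annotated start. Bcl6 and Irf8 have a second RefSeq start each, not printed.
Bcl6, chr16:23988853-23989102, minus strand: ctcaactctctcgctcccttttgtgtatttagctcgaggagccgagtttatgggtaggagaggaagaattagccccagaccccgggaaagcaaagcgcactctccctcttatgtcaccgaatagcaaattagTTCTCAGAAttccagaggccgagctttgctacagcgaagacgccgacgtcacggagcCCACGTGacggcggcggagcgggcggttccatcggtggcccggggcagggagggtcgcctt
Irf8, chr8:120736108-120736357, plus strand: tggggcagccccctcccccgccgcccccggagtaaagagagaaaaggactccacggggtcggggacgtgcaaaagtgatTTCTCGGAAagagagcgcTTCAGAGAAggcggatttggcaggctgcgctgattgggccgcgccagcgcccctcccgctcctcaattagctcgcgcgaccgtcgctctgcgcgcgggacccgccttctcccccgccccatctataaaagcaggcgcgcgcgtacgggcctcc
Bach2, chr4:32417185-32417434, plus strand: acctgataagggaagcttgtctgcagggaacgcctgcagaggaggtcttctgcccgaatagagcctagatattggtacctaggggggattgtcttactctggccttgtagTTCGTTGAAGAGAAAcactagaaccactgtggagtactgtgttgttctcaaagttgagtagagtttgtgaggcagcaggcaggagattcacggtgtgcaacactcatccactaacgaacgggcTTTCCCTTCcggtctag
Irf4, chr13:30748983-30749232, plus strand: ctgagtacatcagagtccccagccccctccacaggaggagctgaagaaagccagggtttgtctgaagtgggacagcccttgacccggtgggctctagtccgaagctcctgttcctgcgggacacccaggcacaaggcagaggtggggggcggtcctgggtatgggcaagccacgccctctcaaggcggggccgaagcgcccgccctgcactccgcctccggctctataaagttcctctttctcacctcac
S1pr2, chr9:20976794-20977043, minus strand: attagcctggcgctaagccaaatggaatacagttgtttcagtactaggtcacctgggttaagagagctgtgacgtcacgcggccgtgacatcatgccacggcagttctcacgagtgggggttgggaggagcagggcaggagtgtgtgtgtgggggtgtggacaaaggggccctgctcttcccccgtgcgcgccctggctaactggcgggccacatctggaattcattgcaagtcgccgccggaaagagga
Xbp1, chr11:5520391-5520640, plus strand: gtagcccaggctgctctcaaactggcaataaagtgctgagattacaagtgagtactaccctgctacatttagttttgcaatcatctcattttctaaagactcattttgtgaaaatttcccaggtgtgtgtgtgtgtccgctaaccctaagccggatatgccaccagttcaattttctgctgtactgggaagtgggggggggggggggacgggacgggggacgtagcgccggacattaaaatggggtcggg

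Over the 10 RefSeq starts of the 8 members, TTCNNNGAA was present at 4 (both of Bcl6, 1 of Irf8 and that of Bach2), against 7.02% of 32851 mouse windows of the same length. GAANNGAAA was present at 2 (Bach2 and the second Bcl6 start; 6.31% of all windows) and CCACGT at 2 (Bcl6 and Pou2af1; 6.91%). TGANTCA was found once, at Prdm1 (6.75%), CACGTG once, at Bcl6 (6.02%), and ATTTGCAT at none (1.6%). At Prdm1 the letters were TGAATCA, with A at the open position N. The windows of Irf4, S1pr2 and Xbp1 held none of the 6. These matches describe the letters of the windows and are not evidence of binding.

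For Xbp1 a further stretch bears on what was measured. The sensor IRE1, encoded by Ern1, cuts 26 bases out of the Xbp1 mRNA under secretory stress, and only the shortened mRNA makes the active factor. The paired loop motif that IRE1 recognises, CNGCAGC, was found at 1 place in the GENCODE transcript Xbp1-201, with the 26 bases between the cuts in capitals:
Xbp1 excised stretch: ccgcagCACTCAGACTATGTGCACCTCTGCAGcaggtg
Reads were counted per gene, so all Xbp1 values given here are sums over both forms of the mRNA.

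To compare the members with each other, CPM were divided by the exon length of each gene in kilobases. On this scale Pou2af1 had the highest level in the lymphoma lines at 299 ± 54.6 CPM per kb (SD, n = 6), followed by Irf4 (26.4 ± 23.6), Bach2 (19.1 ± 14.5), Irf8 (13.0 ± 5.45) and Xbp1 (7.63 ± 2.81). S1pr2 (0.957 ± 0.831), Bcl6 (0.320 ± 0.519) and Prdm1 (0.0638 ± 0.111) stood lowest. From Irf4 to Xbp1, and from S1pr2 to Prdm1, neighbours in this order differed by less than the larger of their SDs. Bcl6 and Prdm1, which encode the repressors opposed to each other in this circuit, thus had the lowest means of the 8, and Bach2, a further repressor, was among the higher ones. All further values are CPM without length correction.

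**Figure D1:**
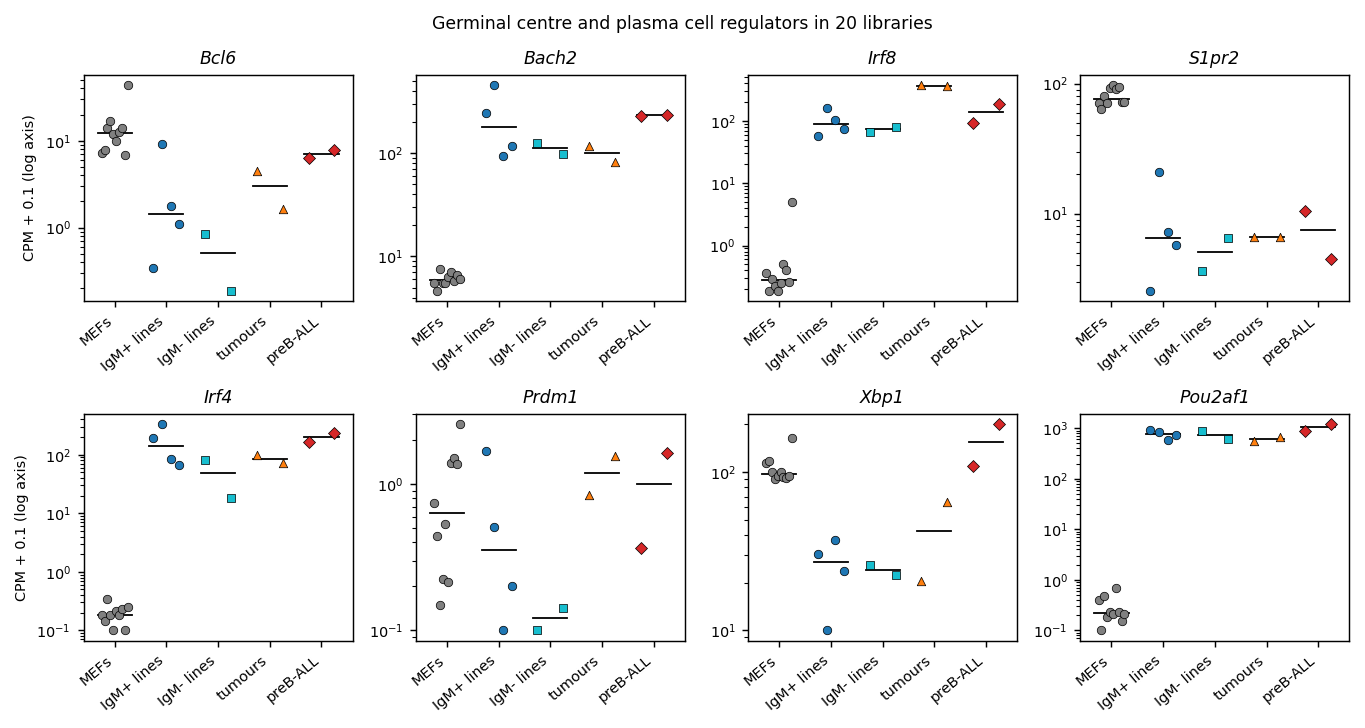
Level of each regulator in the 20 libraries, as CPM + 0.1 on a log axis, with 1 point per library and a bar at the group median. Irf4, Irf8, Bach2 and Pou2af1 were higher in every B lineage library than in every MEF, Xbp1 was lowest in IgM-positive line 15_180, and Bcl6 and Irf8 in WT MEF 2 lay above the other MEFs.

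Bcl6 was low in the lymphoma lines with 1 exception. It stood at 0.243, 9.15, 1.67 and 0.996 CPM in IgM-positive lines 14_179, 15_180, 16_202 and 17_213, and at 0.742 and 0.0862 CPM in IgM-negative lines 18_214 and 19_216. The tumours 20 and 21 had 4.34 and 1.55 CPM, preB-ALL 1 and 2 had 6.21 and 7.70 CPM, and the 10 MEFs ranged from 6.74 to 43.8 CPM with a median of 12.2. Line 15_180 alone among the lines reached the preB-ALL and MEF range, and the lowest line had 2 reads. Bcl6 overlaps a non-coding gene at its start, and whether reads were assigned by strand is not given in the sources used here.

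Bach2, a repressor that delays plasma cell fate, was abundant in every B lineage library. It stood at 245, 461, 93.2 and 118 CPM in IgM-positive lines 14_179, 15_180, 16_202 and 17_213, at 126 and 97.7 CPM in lines 18_214 and 19_216, and at 118 and 82.9 CPM in tumours 20 and 21. The preB-ALL libraries gave 232 and 233 CPM, and MEFs 4.52 to 7.50 CPM with a median of 5.82. Lines 14_179 and 15_180 lay above all other lymphoma libraries.

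Irf8, which acts in early B cells, in germinal centre B cells and in myeloid and dendritic cells, was highest in the tumours. It stood at 58.0, 163, 105 and 75.3 CPM in the 4 IgM-positive lines in the order above, at 67.0 and 80.8 CPM in the IgM-negative lines and at 378 and 358 CPM in tumours 20 and 21. The preB-ALL libraries had 93.7 and 184 CPM. Of the MEFs, 9 had 0.0860 to 0.404 CPM and WT MEF 2 had 4.94 CPM, the same library that held the myeloid markers.

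S1pr2 was higher in every MEF library than in every B lineage library. MEFs ranged from 63.2 to 97.9 CPM with a median of 76.2, while the lines gave 2.43, 20.7, 7.13 and 5.63 CPM (IgM-positive) and 3.52 and 6.42 CPM (IgM-negative). Both tumours had 6.53 CPM, and preB-ALL 1 and 2 had 10.3 and 4.41 CPM. Line 15_180 was again the highest line.

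Irf4, which acts in B cell activation and in the plasma cell, differed widely between the lines. The IgM-positive lines 14_179, 15_180, 16_202 and 17_213 had 197, 333, 84.6 and 66.1 CPM, the IgM-negative lines 18_214 and 19_216 had 80.1 and 18.0 CPM, and tumours 20 and 21 had 98.1 and 72.7 CPM. The preB-ALL libraries had 165 and 236 CPM, within the range of the lines. MEFs had at most 0.244 CPM, which is 5 reads.

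Prdm1 was close to the detection limit throughout. It gave 1.58, 0.412, 0 and 0.0996 CPM in the IgM-positive lines, 0 and 0.0431 CPM in the IgM-negative lines, 0.745 and 1.45 CPM in tumours 20 and 21, and 0.267 and 1.52 CPM in preB-ALL. The lines held 0 to 39 reads, and the 0 in lines 16_202 and 18_214 allows up to 0.114 and 0.117 CPM (3 reads, counting error only). MEFs ranged from 0.0487 to 2.47 CPM. The highest value came from WT MEF 2, the library that held the myeloid markers, and every B lineage library lay below it. The next MEF, sgBcl-2 MEF 2_2, had 1.41 CPM. The IgM-positive line with 1.58 CPM, preB-ALL 2 (1.52 CPM) and tumour 21 (1.45 CPM) lay above that value. All other B lineage libraries lay below it.

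Xbp1 was higher in preB-ALL and in MEFs than in the lines. The IgM-positive lines had 30.4, 9.86, 37.1 and 23.6 CPM, the IgM-negative lines 25.7 and 22.1 CPM, tumours 20 and 21 had 20.4 and 64.5 CPM, and preB-ALL 1 and 2 had 110 and 201 CPM. MEFs ranged from 90.0 to 165 CPM with a median of 97.3. No line reached the lowest preB-ALL or MEF value, and line 15_180 was the lowest of all.

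Pou2af1 was the steadiest of the 8. The IgM-positive lines had 922, 829, 587 and 728 CPM, the IgM-negative lines 883 and 618 CPM, the tumours 551 and 683 CPM and preB-ALL 875 and 1206 CPM. MEFs had at most 0.606 CPM. Its coefficient of variation over the 6 lines was 18.3%, against 36.8% for Xbp1, 42.0% for Irf8, 75.7% for Bach2, 86.8% for S1pr2, 89.1% for Irf4, 162% for Bcl6 and 174% for Prdm1.

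Line 15_180 stood at an end of the 6 lines in several members, and it is described here from these same values. It was the highest of the 6 lines in 5 members and the lowest in 1. How often this line is the highest or the lowest over all genes was not determined. The count thus cannot be read as particular to these members. Against the median of the other 5 lines its level was 12.3-fold for Bcl6, 4.15-fold for Irf4, 3.90-fold for Bach2, 3.67-fold for S1pr2 and 2.17-fold for Irf8, but 0.384-fold for Xbp1 and 1.14-fold for Pou2af1. For Prdm1 it was 9.56-fold, on a median of 0.0431 CPM and below line 14_179. Its fibroblast marker sum, 38.9 CPM, was the highest of the lines (3.12 to 7.11 CPM in the others), of which Sparc gave 28.3 CPM, while Dcn and Lum stood at 0 and the median of the 12 genes was 0.469 CPM. Its sum over 9 T cell markers was also the highest of the lines (64.2 CPM, against 10.9 to 48.4 CPM), with 62.2 CPM from Lck and Cd4, Cd8a, Cd8b1 and Cd5 at 0. The part of these transcripts in its levels was not tested. With 1 library of the line, these values have no replicate check.

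**Figure D2:**
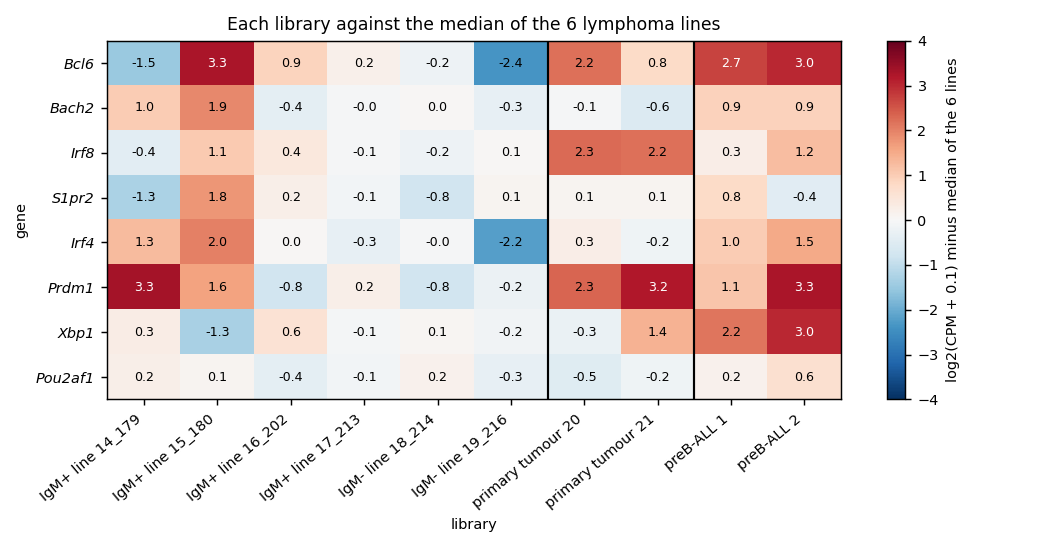
Each library minus the median of the 6 lymphoma lines, on the log2(CPM + 0.1) scale, with genes in rows and lines, tumours and preB-ALL in columns. Line 15_180 has positive values in Bcl6 (3.3), Irf4 (2.0), Bach2 (1.9), S1pr2 (1.8) and Irf8 (1.1) and a negative one in Xbp1 (-1.3), and Irf8 is raised in both tumours (2.3 and 2.2).

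When the 6 lines were compared with preB-ALL, another B cell malignancy against which the study set its model, the test gave 1 difference among the 8 members. Xbp1 fell by 2.32 on the log2 scale (SE 0.48, limma, adjusted p = 0.0052), from 155 ± 64.3 CPM (SD, n = 2) in preB-ALL to 24.8 ± 9.12 CPM (SD, n = 6) in the lines, and the groups did not overlap (nor did they in 53.4% of all genes). Of all 13961 genes tested, 43.4% passed the same threshold in either direction and 22.5% were lower, so 1 of 8 lies below the background. The Xbp1 call rested on preB-ALL 2: without it the difference was -1.98 (adjusted p = 0.0851, with the lone preB-ALL library assumed to vary like the lines). The preB-ALL library with the larger fibroblast sum had the lower Xbp1 (6600 CPM beside 110, and 2821 CPM beside 201), and the part of these transcripts was not tested.

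**Figure D3:**
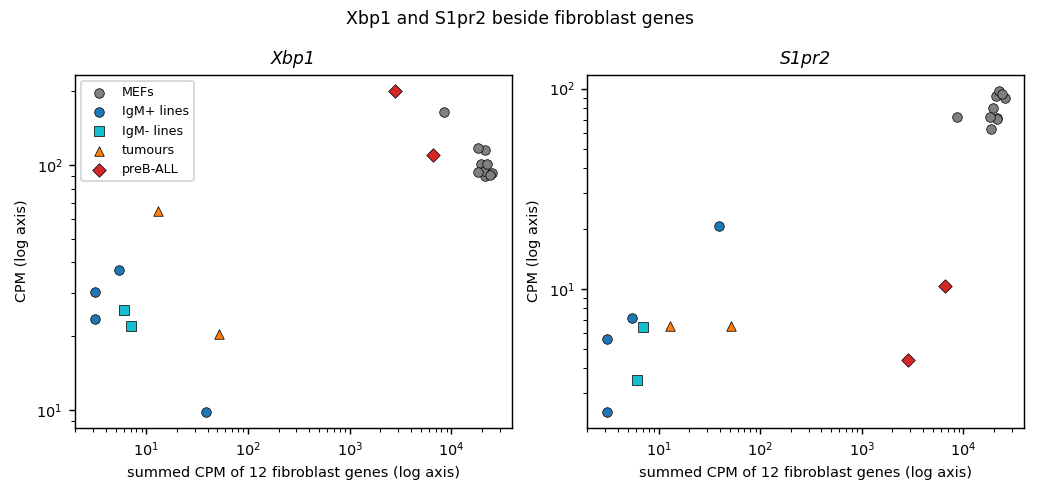
CPM of Xbp1 and of S1pr2 in each library against the summed CPM of 12 fibroblast genes, both on log axes, with 1 point per library. The preB-ALL libraries lie between the lymphoma libraries and MEFs on the horizontal axis, at 6600 and 2821 CPM, with Xbp1 at 110 and 201 CPM and S1pr2 at 10.3 and 4.41 CPM.

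The other members did not pass. Bcl6 averaged 2.15 ± 3.48 CPM in the lines (SD, n = 6) and 6.95 ± 1.05 CPM in preB-ALL (SD, n = 2), a log2 difference of -2.48 (SE 1.27, limma adjusted p = 0.147). Line 15_180 decided this result, since without it the difference was -3.15 and passed (SE 0.89, limma adjusted p = 0.0251). Log2 differences were -1.37 for Prdm1, -0.77 for Irf4, -0.25 for Irf8, -0.20 for Bach2, -0.09 for Pou2af1 and 0.19 for S1pr2, with limma adjusted p from 0.353 to 0.850. For these 6, lines and preB-ALL overlapped. In bulk samples a lower value can come from fewer cells that express a gene or from less RNA per cell, and these cannot be told apart. Bach2 was lower than in preB-ALL by 0.83 when the tumours replaced lines 14_179 and 15_180 (SE 0.19, limma adjusted p = 0.0133).

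Genes of the same pathways were read against the share of all genes called (43.4%, with 20.9% higher and 22.5% lower). Of 14 measured germinal centre genes 1 rose and 5 fell, a share near that of all genes, with a median log2 difference of -0.71 beside -0.07 over all genes. The largest rise was in Tfap4, a MYC-induced factor (90.3 ± 17.9 against 34.4 ± 9.64 CPM, log2 difference 1.76), and the largest fall in Cxcr5, the receptor that guides B cells to follicles (2.69 ± 4.18 against 93.3 ± 22.8 CPM, -5.55). Of 10 plasma cell genes only Jchain, the joining chain of secreted antibody, was called (0.0255 ± 0.0460 against 1.44 ± 0.227 CPM, -3.41, median of the list -0.54). Jchain and the lower germinal centre genes Fas, Gpr183 and Basp1 averaged below 0.1 CPM in the lines. They passed the filter through preB-ALL, so they could only be called lower, and their sizes depend on the 0.1 CPM added before the logarithm. None of 8 XBP1 targets, which serve protein folding and export, was called in either direction by limma at an adjusted p under 0.05, and their median was 0.03, although Xbp1 itself fell.

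Of 10 partners of the members 6 rose and 1 fell, where 20.9% of all genes were higher and 22.5% lower, with a median of 0.73 beside -0.07 over all genes. The difference from all genes was not tested. Ern1, which encodes IRE1, rose most, from 4.80 ± 0.208 CPM in preB-ALL (SD, n = 2) to 12.3 ± 3.30 CPM in the lines (SD, n = 6; log2 difference 1.65). Batf, the AP-1 factor that binds DNA with IRF4 and IRF8, fell from 28.8 ± 1.49 to 1.99 ± 3.30 CPM (-5.05). Of 5 genes known to be repressed by BLIMP-1, Myc rose by 2.76, Pax5 changed by -1.72 and Id3 by -1.25, while Ciita (2.80, adjusted p = 0.480) and Spib (-0.87, adjusted p = 0.106) did not pass limma's test. Myc is the transgene of the lymphomas, so its reads cannot be split between transgene and endogenous gene. The median of these 5 genes was -0.87.

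Of 7 measured genes of the sphingosine-1-phosphate axis, in which S1PR2 acts, 5 fell in the lines and none rose, where 22.5% of all genes were lower and 20.9% higher (median -1.33). This difference was not tested either. The smallest of these changes was in Arhgef1, the RhoGEF downstream of S1PR2 (250 ± 21.0 against 642 ± 246 CPM, -0.95). The widest gap was in S1pr3, at 0.0134 ± 0.0209 CPM in the lines and 42.4 ± 11.0 CPM in preB-ALL, and all 10 tested fibroblast markers were lower in the lines too (median -8.72). S1pr3 passed the filter through preB-ALL, so it could only be called lower. The same holds for fibroblast markers near 0 in the lines, such as Col6a1 (0.0892 CPM), Pdgfra (0.0691 CPM) and Pdgfrb (0.129 CPM). The sizes of such falls depend on the 0.1 CPM added before the logarithm. The part of the fibroblast transcripts in S1pr3 was not tested. Among the 6 B cell markers 3 fell, from Cd79a (-1.35) to Ms4a1 (-7.23).

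**Figure D4:**
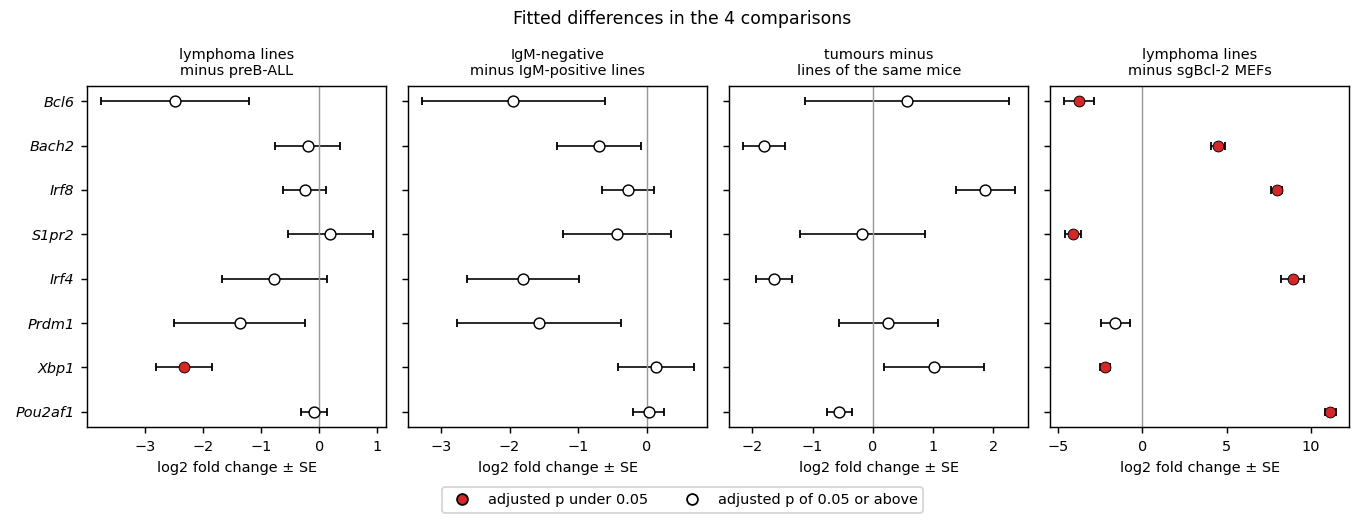
Fitted log2 fold changes of the 8 members (horizontal axis) with bars for their SE in the 4 comparisons, with filled points where the adjusted p was under 0.05. Of the 8, 1 passed against preB-ALL (Xbp1), none between IgM-negative and IgM-positive lines, none between tumours and lines, and 7 against sgBcl-2 MEFs.

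IgM-negative lines were compared with IgM-positive lines to ask whether the regulators differ with surface IgM. No member passed limma's test (0 of 8, with 0 of 8 at an unadjusted p under 0.05 as well, and 0 by edgeR, DESeq2 and voom), while 0.597% of 12386 genes did. The widest difference was in Bcl6 (0.414 ± 0.464 CPM, n = 2, against 3.01 ± 4.13 CPM, n = 4, SD; log2 difference -1.94, SE 1.33, limma adjusted p = 0.624), followed by Irf4 (49.0 ± 43.9 against 170 ± 123 CPM, -1.80, SE 0.82, limma adjusted p = 0.484). The ranges of the groups overlapped in all 8 members, and 22.6% of all genes did not overlap. Pou2af1 (0.02, SE 0.23) and Xbp1 (0.13, SE 0.55) had the smallest differences. None of the 10 germinal centre, 9 plasma cell, 8 XBP1 target, 5 BLIMP-1 target, 10 partner or 6 sphingosine-1-phosphate genes tested passed limma's adjusted test. Of the BLIMP-1 targets, Ciita had 0.0195 ± 0.0276 CPM in IgM-negative and 35.1 ± 30.2 CPM in IgM-positive lines (-6.29, limma adjusted p = 0.445), and Myc, Pax5, Id3 and Spib differed by 0.52, -0.51, 0.18 and -0.12.

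Primary tumours were set against lines 14_179 and 15_180, which came from the same 2 mice. No member passed limma's test, with 0.33% of 12719 genes called. At an unadjusted p under 0.05, limma gave 3 of 8 members, where 25.9% of all genes had such a p, and 4 of 8 did not overlap between the groups, where 57.1% of all genes did not. Bach2 averaged 100 ± 24.5 CPM in tumours and 353 ± 153 CPM in the lines (SD, n = 2 each; -1.81, SE 0.35, limma adjusted p = 0.0807), Irf4 85.4 ± 18.0 and 265 ± 96.2 CPM (-1.65, SE 0.30, limma adjusted p = 0.0782) and Irf8 368 ± 14.2 and 110 ± 74.3 CPM (1.87, SE 0.49, limma adjusted p = 0.114). Pou2af1, at 617 ± 93.1 and 876 ± 65.8 CPM, also did not overlap (-0.56, SE 0.21, limma adjusted p = 0.193). In both tumours Irf8 was thus above all 6 lines.

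How the tumours were paired with the lines changed these calls. With the replicate block by the mouse number of the titles, which leaves 1 residual degree of freedom, 28.3% of all genes and 5 of 8 members passed: Bach2 (limma adjusted p = 0.0061), Irf4 (0.0062), Xbp1 (1.01, 0.0186), Irf8 (0.0196) and Pou2af1 (0.0356). With the block by the mouse number of the descriptions none of the genes passed. The title pairing is the one in which tumours and lines deviated together. Such a block leaves a smaller residual by construction, so its calls are no separate support for that pairing. DESeq2 without a block called Bach2 (adjusted p = 3.55e-05), Irf4 (3.39e-05) and Irf8 (0.0050), whereas edgeR gave 0.0990, 0.0979 and 0.144. The tumours also held more reads of myeloid and dendritic markers than lines 14_179 and 15_180: 31.3 and 42.0 CPM over the 10 myeloid markers against 6.11 and 13.2 CPM in these lines, and 6.78 and 12.6 CPM over 6 dendritic markers against 2.03 and 2.85 CPM. Most of the myeloid sum in the tumours came from Itgam, Adgre1 and Cd68 (means of 14.9, 9.80 and 8.29 CPM). In lines 14_179 and 15_180 these averaged 6.17, 0 and 3.32 CPM. Lyz2 and Csf1r averaged 1.79 and 1.17 CPM in the tumours, against 0.0187 and 0.116 CPM. Itgam alone gave 9.94 of the 13.2 CPM in line 14_179. The dendritic sum was 23.4, 38.9 and 42.4 CPM in lines 16_202, 18_214 and 19_216, above both tumours, and 2.09 CPM in line 17_213. Flt3 alone gave 22.5, 37.8 and 41.9 CPM of it in lines 16_202, 18_214 and 19_216. Both cell types can express Irf8, and their part in its level was not tested. Ms4a1 (664 ± 191 against 5.76 ± 2.41 CPM, 6.81, limma adjusted p = 0.0498) and Gpr183, a receptor that B cells lose on entering the germinal centre (22.1 ± 1.63 against 0.0578 ± 0.0243 CPM, 7.11, limma adjusted p = 0.0498), were the genes called in these lists, and the 2 are named here after their values were seen. Gpr183 passed the filter through the tumours, so it could only be called higher there.

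The sgBcl-2 MEFs carry the same activation cassette and an sgRNA for the same gene in a cell of another lineage, without Eµ-Myc. Against them 7 of 8 members passed, where 81.3% of 14620 genes did. In the lines 4 were higher (36.3% of all genes were) and 3 were lower (45%), so the share of members called is near that of all genes. The higher ones were Pou2af1 (log2 difference 11.16, SE 0.32), Irf4 (8.91, SE 0.68), Irf8 (7.97, SE 0.34) and Bach2 (4.50, SE 0.40). The lower ones were S1pr2 (-4.12, SE 0.46), Bcl6 (-3.77, SE 0.89) and Xbp1 (-2.21, SE 0.32). The sgBcl-2 MEFs held 0 to 15 reads of Irf4, Irf8 and Pou2af1. These 3 passed the filter through the lines, so they could only be called higher. Their sizes depend on the 0.1 CPM added before the logarithm. Over the alternative settings they ran from 6.32 to 10.34, from 6.06 to 8.42 and from 9.17 to 11.64. Prdm1 differed by -1.61 (SE 0.86, limma adjusted p = 0.107) and passed without line 14_179 (-2.15, adjusted p = 0.0139) and without sgBcl-2 MEF 1_2 (-2.20, adjusted p = 0.0443). The 4 MEF libraries come from 2 MEF lines, and this comparison uses the same 6 lines as the one with preB-ALL.

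Placed side by side, Xbp1 was lower in the lines than in preB-ALL and lower than in MEFs, Bcl6 was lower than in MEFs and lower than in preB-ALL in 5 of 6 lines, and Irf4, Irf8, Bach2 and Pou2af1 separated B lineage libraries from fibroblasts but not the lines from preB-ALL by the test. Ordered by mean, Irf8 ran from tumours (368 CPM) to preB-ALL (139), IgM-positive lines (100), IgM-negative lines (73.9) and MEFs (0.670), and only the first and the last step separated ranges that did not overlap. For Irf4 the order was preB-ALL (200 CPM), IgM-positive lines (170), tumours (85.4), IgM-negative lines (49.0) and MEFs (0.0930), with overlap at every step but the last. Prdm1 overlapped at every step of its order.

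The genes most like each member were sought by Pearson's r of log2(TMM-scaled CPM + 0.1) over the 20 libraries among 16271 genes. The libraries share a large contrast between 10 MEFs and 10 B lineage samples, so these values are descriptions. Irf4 was most like Pax5 (r = 0.987), the B cell identity factor, and Susd1 (0.987). Irf8 was most like Tlr9 (0.991), a sensor of unmethylated DNA, and Ncf4 (0.991). Pou2af1 was most like Myb (0.995) and Lrmp (0.995), and Bach2 also like Myb (0.981), a factor of early haematopoietic cells, and Mios (0.979). S1pr2 was most like Myo9a (0.979) and C1ql3 (0.977), Xbp1 like Ly96 (0.957) and Mindy1 (0.943), Bcl6 like 3110053B16Rik (0.939) and Slc35b1 (0.924), and Prdm1, at its low counts, like Pgam2 (0.805) and Mxd1 (0.795).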

How the data were processed

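RNA-seq of 20 libraries (TruSeq RNA v2, total RNA) was analysed. Reads were mapped by the authors to GRCm38 with Rsubread, and gene totals by Entrez identifier were deposited as CPM. Replicate libraries were kept apart. Strand use in counting, and whether libraries of a group were separate cultures for the MEFs, are not given in the sources used here, so p-values measure only the spread between these libraries.

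Each column stepped in whole multiples of 1 read, and 100% of values came out as whole reads within 0.01 reads; edgeR, DESeq2 and voom were run on these recovered reads as alternatives. Symbols and coordinates came from RefSeq GRCm38.p6 (25242 of 25869 identifiers matched). Groups were taken from the sample labels.

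In each of the 4 comparisons only its own libraries were fitted. Genes were kept by filterByExpr on recovered reads, CPM were TMM-scaled, log2(CPM + 0.1) was fitted by limma with eBayes and trend, and the Benjamini-Hochberg adjustment was made over all genes tested (threshold 0.05). All 8 members passed the filter in all 4 comparisons. The script was tested on simulated data. Alternatives were other tests, scalings and pseudocounts (0.5 and 1 CPM), no filter, no mitochondrial genes, each library left out, other sample choices and replicate blocks. The 8 members and the gene lists were chosen with earlier results of these data known, and 1 gene of the B cell marker list is not reported here. From each list the called genes with the largest and smallest change against preB-ALL and between IgM groups were named, and all genes of lists of up to 5. The mouse numbers of the tumours differ between title and description, and the column names of the deposited values follow the description. Deviations from group means over 12719 genes correlated at 0.597 when paired by title. The value by description, -0.597, is the same number with its sign turned. The unblocked fit was the main one. Promoter windows are from the RefSeq table of GRCm38.p6. Computation used R 4.3.3, limma 3.58.1, edgeR 4.0.16, DESeq2 1.42.0, Python 3.11.15 and matplotlib 3.10.9. Intervals and floors cover counting error only.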

Additional observations from a re-analysis of the deposited data

Results flagged for a closer look

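Of 32 combinations of a member and a group of 4 to 10 libraries, 8 had a library set apart from the others by Dixon's test. Its chance rate of about 1 in 20 holds for independent, normally distributed values. The groups here are nested and CPM are skewed, so the 8 cannot be set against that rate. In the 6 lymphoma lines these were Bcl6 in line 15_180 (9.15 CPM), S1pr2 in line 15_180 (20.7 CPM) and Prdm1 in line 14_179 (1.58 CPM, 39 reads). Bcl6 in line 15_180 was also set apart among the 4 IgM-positive lines alone (9.15 CPM). The result for Bcl6 against preB-ALL turned on this library, as given above.

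Among the 10 MEFs, WT MEF 2 was set apart in Bcl6 (43.8 CPM), Irf8 (4.94 CPM) and Xbp1 (165 CPM). This is the library with 234.6 CPM over the 10 myeloid markers and 12.5 CPM over the 6 B cell markers, and with the lowest fibroblast sum of the MEFs (8538 CPM). The part of such cells in these levels was not tested. WT MEF 2 enters none of the 4 comparisons, only the alternative with all 10 MEFs. Among the 4 sgBcl-2 MEFs, Pou2af1 was set apart in 2_1 (0.606 CPM, 15 reads).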

How the results depend on the processing

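With the replicate block by title, 5 members were called between tumours and lines, and DESeq2 called 3, against none in the unblocked limma fit; the block by description called none. Against preB-ALL, the count was 1, with 0 to 2 when 1 library was left out (0 without preB-ALL 2, 2 without line 15_180) and 2 with tumours in place of their lines. Genes called over the whole table moved to 3177 without preB-ALL 2 and to 3668 with tumours in place, from 6059. Between IgM groups 74 genes were called, 749 by DESeq2, 24 by edgeR, 1 by voom and 35 to 117 with 1 library left out; between tumours and lines 42, against 2100 by DESeq2, 3600 with the block by title and 0 by edgeR, voom, RLE, without filter and without any 1 library. Without scaling factors the split against preB-ALL was 1691 higher and 4400 lower in place of 2914 and 3145, with the median of all genes at -0.42 in place of -0.07. Of 557 values of single members under alternatives, 522 kept direction and call, 1 lost its call, 12 gained one and 22 changed sign, none of the 22 past the threshold on either side.

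Sign changes against preB-ALL were Irf8 (-0.723 to 0.141 with 1 library left out, 0.350 with tumours in place), Pou2af1 (-0.309 to 0.0424 with 1 left out), Bach2 (0.0414 by edgeR, 0.0291 in IgM-positive lines only) and S1pr2 (-0.167 without scaling, -0.507 to 0.801 with 1 left out). Between IgM groups they were Xbp1 (-0.0353 by edgeR, -0.0284 by DESeq2, -0.287 to 0.379 with 1 left out), Pou2af1 (-0.0333 without scaling, -0.247 to 0.318 with 1 left out) and S1pr2 (-0.903 to 0.0774 with 1 left out). Between tumours and lines they were Bcl6 (-0.688 by edgeR, -0.687 by DESeq2, -1.79 to 2.89 with 1 left out), Prdm1 (-0.653 to 1.15 with 1 left out) and S1pr2 (-1.66 to 1.29 with 1 left out). The causes were not tested. With 2 preB-ALL libraries, 2 tumours and 2 IgM-negative lines, the spread is known from few libraries, and Prdm1, at 0 to 65 reads, is limited by depth.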
